A study of Caenorhabditis elegans with 8 samples.

Results

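A set of 83 nuclear protein-coding genes of Caenorhabditis elegans had clearly less RNA in adult worms fed bacteria that make double-stranded RNA against mtch-1 than in worms fed empty-vector bacteria. The gene table, made on the WBcel235 genome build, held 20871 genes, of which 11298 were nuclear and protein-coding with a mean of at least 20 normalized counts in the empty-vector samples, and these are called eligible genes here. A gene joined the set when its mean after mtch-1 knockdown was at most 0.6 times the empty-vector mean and its highest value after knockdown lay below its lowest empty-vector value. Of the eligible genes 93 (0.823%) met these limits, and 10 of them, mtch-1 among them, were left out by the selection rule, which names them. The genes were thus chosen by their measured normalized counts in these 8 samples, so the levels and ratios of the 83 genes are given as a description and carry no test.

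The 4 mtch-1(RNAi) samples and the 4 EV samples were whole worms of the same age and diet, apart from the insert of the plasmid that the bacteria carried. All worms grew at 20 °C on plates with ampicillin and 1 mM IPTG, seeded with HT115 Escherichia coli, and were synchronised by letting adults lay eggs on the plates. The bacteria held L4440 with no insert (EV) or a construct against mtch-1, and 5 mM IPTG was given for 3 h at 37 °C to induce them. Worms were taken at day 3 of adulthood, at which stage hermaphrodites carry oocytes and embryos. The labels name no strain or genotype. Nothing in them says that replicates came from separate cultures, and p-values cover no more than the spread of these samples, which may be technical.

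MTCH-1 is a mitochondrial carrier homolog, a relative of the mammalian outer-membrane protein MTCH2. Several families in the set act where the worm meets its food. C-type lectins, saposin-like proteins and galectins are secreted or intestinal proteins that bind bacterial or sugar surfaces, and fatty acid elongases lengthen the acyl chains that go into membranes and stores. Chemoreceptor-type membrane receptors, ion channels, and secreted proteins with a ShTK domain (a cysteine-rich fold first known from an anemone toxin) are also present.

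Total counts ran from 20626184 to 22748868 in the mtch-1(RNAi) samples and from 18710833 to 23608608 in the EV samples. The targeted gene, mtch-1 (F43E2.7), had 1048, 1218, 716 and 949.9 normalized counts in mtch-1(RNAi) samples 1 to 4, against 5528, 5998, 5762 and 6068 in EV samples 1 to 4, a ratio of 0.168. Every knockdown sample lay far below every EV sample. A normalized count is a read count divided by 1 size factor per sample, and these factors lay between 0.867 and 1.15, so it is close to a number of reads. Of 8 oocyte and germline markers, 7 were lower by edgeR at an adjusted p under 0.05, where 13% of all tested genes were. The number of these markers called lower was 5 with no count filter and 5 to 7 when 1 sample was left out. The summed level of the 8 markers was 151106 to 163449 in mtch-1(RNAi) samples, against 183654 to 197786 in EV samples, and none was at 0. The summed level of 8 embryo markers was 3772 to 4171 in mtch-1(RNAi) samples, against 4322 to 4675 in EV samples, and that list holds tbx-38, a gene of the set. Of the 6 embryo markers that were tested, 2 were called lower, pal-1 and tbx-38. Without mtch-1(RNAi) sample 1 or without EV sample 3, tbx-38 was not called. Summed levels of the marker lists of intestine, hypodermis, muscle, neurons, sperm, gonadal sheath and coelomocytes had ratios of 0.966 to 1.16. The part of the germline and embryo difference in the results that follow was not tested, and in RNA of whole worms fewer cells of a type cannot be told apart from less RNA per cell.

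The 83 genes together took a small part of the RNA, and that part was smaller after knockdown, which follows from how they were chosen. They held 0.168% ± 0.0120 of all counts in mtch-1(RNAi) samples, against 0.30% ± 0.00635 in EV samples (SD, n = 4). One gene, C17F4.7, supplied much of that share, and without it the shares were 0.0985% ± 0.00763 in mtch-1(RNAi) samples and 0.181% ± 0.00633 in EV samples. The ratio of means had a median of 0.512 over the set (log2 -0.97), where the median log2 ratio of all eligible genes was -0.01. In 38 genes the ratio was at most 0.5, in 20 at most 0.4, in 7 at most 0.3 and in 4 at most 0.2. Levels covered a wide range, with EV means under 50 normalized counts in 21 genes, from 50 to 500 in 41 and of at least 500 in 21. Per length, in the authors' FPKM, the median EV level was 5.74 in the set and 17.6 in all eligible genes. All 83 genes were abundant enough for the edgeR test, and 80 were called lower, where 13% of all tested genes were called lower. Those calls rest on the values that chose the genes and support nothing. The 3 genes not called were F59A7.12, asp-17 and ttr-27.

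**Figure D1:**
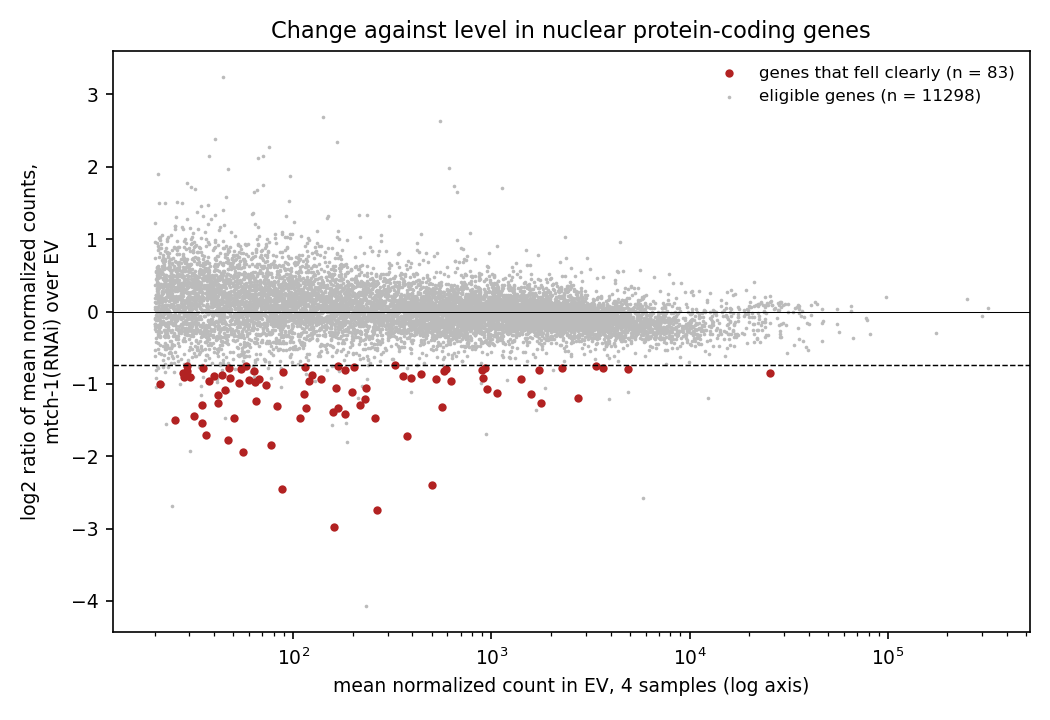
Each point is a gene, placed by its mean normalized count in the 4 EV samples (horizontal, log axis) and its log2 ratio of means, mtch-1(RNAi) over EV (vertical), with the 83 chosen genes in red, the 11298 eligible genes in grey and the ratio limit of 0.6 dashed. The red points lie between log2 ratios of -2.98 and -0.74. Their EV means run from 21.2 to 25458 with a median of 125, where eligible genes reach 320625 with a median of 544. Grey points under the dashed line either overlapped between groups or were left out by the selection rule.

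The gap between groups was narrow in many of these genes. The lowest EV sample was a median of 1.35 times the highest mtch-1(RNAi) sample, at least 2 times in 4 genes and under 1.1 times in 12. Complete separation of the groups with the knockdown lower was itself common, since 1875 eligible genes (16.6%) showed it, and 1782 of these had a ratio above 0.6. The ratio and level were met by 55 further genes whose groups overlapped. The narrowest gap was in F59A7.12, at 11.4, 24.2, 19.5 and 10.8 normalized counts in mtch-1(RNAi) samples 1 to 4, against 29, 24.2, 26.9 and 36 in EV samples 1 to 4. Its mtch-1(RNAi) sample 2 and EV sample 2 had nearly the same level, while the remaining mtch-1(RNAi) samples were lower than every EV sample.

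Just inside the limit lay ttr-27 with a ratio of 0.592, cex-1 (calexcitin, a calcium-binding protein) with 0.594 and C49C3.9 with 0.597. Just outside it lay the cathepsin B-like protease gene cpr-3, whose ratio of 0.600194 was just above the limit, the glutathione S-transferase gene gst-38 with 0.602 and the saposin-like gene spp-17 with 0.603. The 3 genes inside and the 3 outside therefore differ little in ratio. cex-1 had 115, 96.7, 100.4 and 86.5 normalized counts in mtch-1(RNAi) samples 1 to 4, against 187, 153, 154 and 176 in EV samples 1 to 4. cpr-3 had 381, 269.8, 185 and 176 in mtch-1(RNAi) samples 1 to 4, against 526, 383, 389 and 388 in EV samples 1 to 4. In cex-1 the groups stayed apart, while in cpr-3 the highest knockdown value and the lowest EV value nearly met.

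Seen sample by sample, all 4 knockdown samples carried the lower levels, as the selection rule asks in each gene, and sample 1 had the lowest median. The median gene stood at 43.1%, 52.3%, 48.7% and 51.6% of its EV mean in mtch-1(RNAi) samples 1 to 4, against 102%, 97.9%, 95.5% and 98.5% in EV samples 1 to 4. mtch-1(RNAi) sample 1 held the lowest value of its group in 35 of the 83 genes, against 16, 18 and 14 for samples 2 to 4. Within same-numbered pairs the median ratio was 0.448, 0.504, 0.535 and 0.528, and 33 genes had a ratio of at most 0.6 in each pair. The spread within a group was wider than usual, with a median coefficient of variation of 22.3% in mtch-1(RNAi) and 18.3% in EV, against 8.51% and 8.53% over all eligible genes. This was not particular to the set. In the 211 genes that rose by a mirrored rule, given further below, the medians were 16.3% in mtch-1(RNAi) and 18.6% in EV. The median EV mean was 125 normalized counts in the set and 544 in eligible genes, and the part of this lower level in the spread was not tested.

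**Figure D2:**
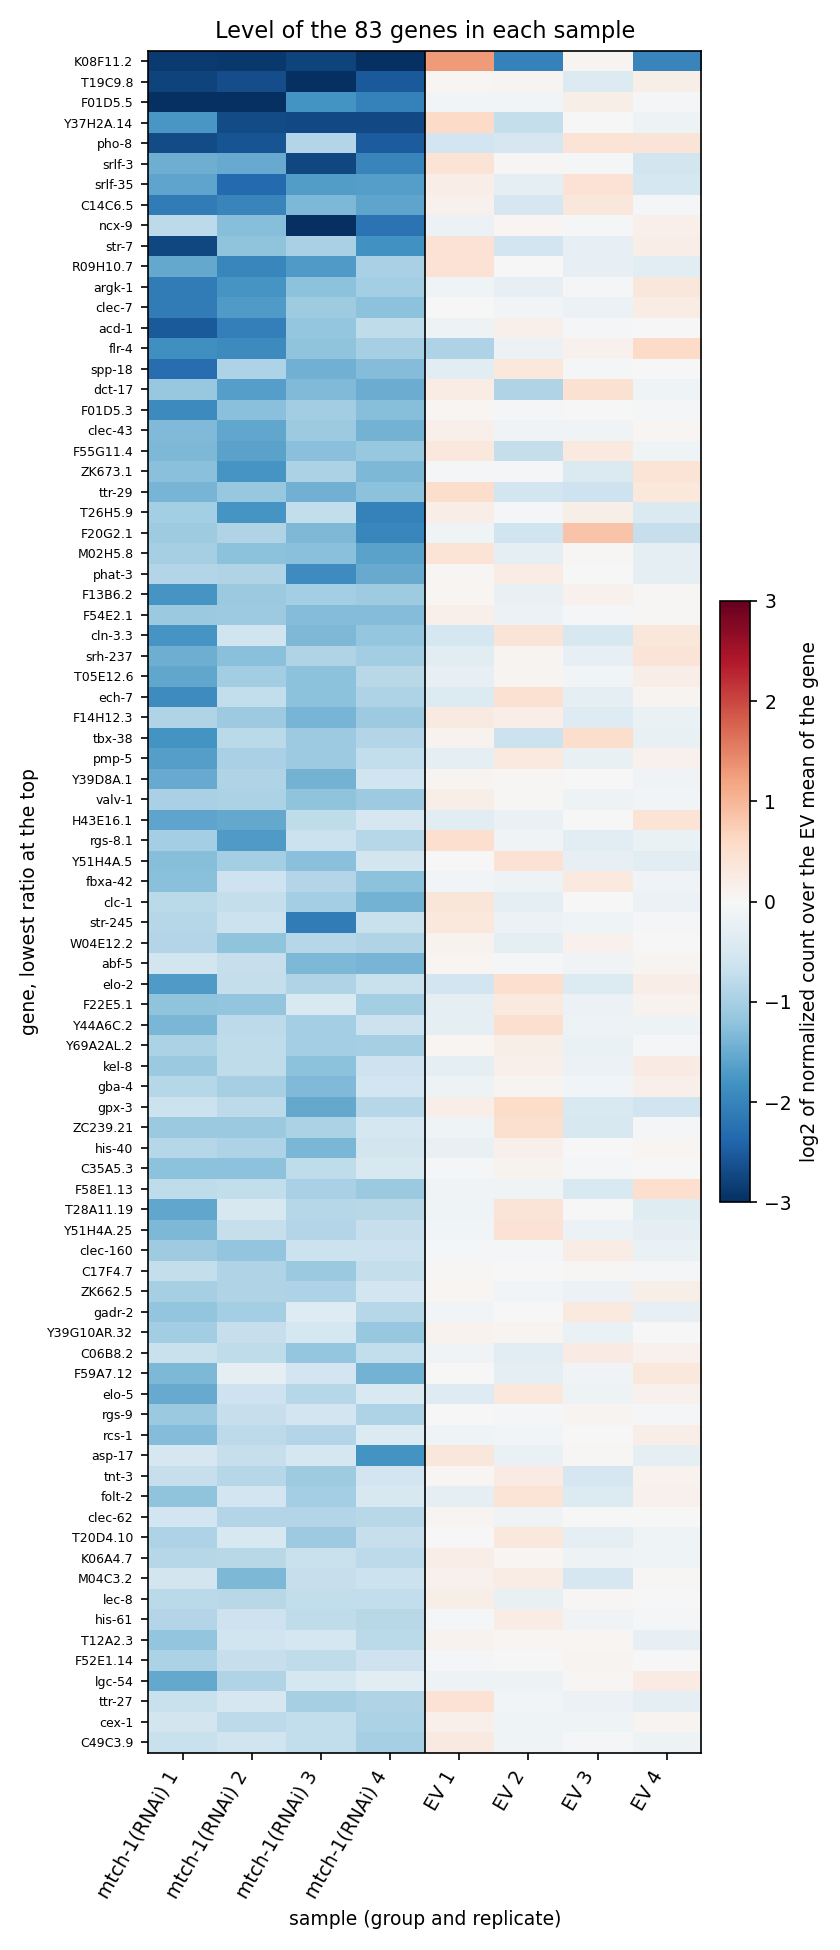
Rows are the 83 genes with the lowest ratio at the top and columns are the 8 samples, mtch-1(RNAi) on the left of the black line and EV on the right. Colour gives log2 of the normalized count over the gene's own EV mean, so blue is lower, and colours saturate at the ends of the scale. The knockdown columns are blue throughout, and mtch-1(RNAi) sample 1 is the lowest of its group in 35 genes.

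The 4 genes with ratios of at most 0.2 were T19C9.8, Y37H2A.14, K08F11.2 and F01D5.5, and apart from the ShTK domain of F01D5.5 no role is given to them here. T19C9.8 (chromosome V, 17239097 to 17240721, plus strand) encodes a protein of 369 residues. It had 38.4, 41.9, 31.2 and 46.2 normalized counts in mtch-1(RNAi) samples 1 to 4, against 277, 281, 200.3 and 299 in EV samples 1 to 4. The groups were far apart and the loss was even, with a ratio of 0.149 and within-pair ratios of 0.139 to 0.156. Its span overlaps T19C9.10, and whether the counting used strand is not given in the sources used here, so reads of the overlap could belong to either gene.

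Y37H2A.14 (chromosome V, 18143745 to 18144720, plus strand), a gene for a protein of 181 residues, had 150.2, 78.1, 77 and 76.7 normalized counts in mtch-1(RNAi) samples 1 to 4, against 753, 306, 499 and 451 in EV samples 1 to 4. Sample 1 was the highest of its group in both groups, the groups did not overlap, and the ratio was 0.190. K08F11.2 (chromosome IV, 4717056 to 4720216, plus strand, by the deposited coordinates) had the lowest ratio of group means, 0.127. It had 21.8, 21.4, 23.4 and 14.7 normalized counts in mtch-1(RNAi) samples 1 to 4, against 391, 39.2, 170.1 and 40.6 in EV samples 1 to 4. EV samples 1 and 3 were far above EV samples 2 and 4, the knockdown samples were all low, and without EV sample 1 the log2 ratio was -2.03 in place of -2.98. By the mean of its 4 within-pair log2 ratios it stood at -2.29, against -2.71 in T19C9.8, -2.54 in F01D5.5 and -2.37 in Y37H2A.14.

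Proteins with a ShTK domain formed the largest family by the domains in the deposited table. That table gives the domain to 5 of the 83 genes, out of 28 eligible genes that carry it, and their ratios ran from 0.183 to 0.424. F01D5.5 (chromosome II, 14001686 to 14002300, minus strand) had 9.61, 7.44, 25.3 and 21.6 normalized counts in mtch-1(RNAi) samples 1 to 4, against 82.8, 83, 98.5 and 85.8 in EV samples 1 to 4. Even its highest knockdown sample was far below its lowest EV sample, and the ratio was 0.183. Its neighbour F01D5.3, 1541 bases away with no protein-coding gene between them, had 44.5, 70.7, 81.9 and 68.8 in mtch-1(RNAi) samples 1 to 4, against 176, 165, 170.1 and 161 in EV samples 1 to 4. Both neighbours were nearly constant over the EV samples and clearly separated, with a ratio of 0.395 in F01D5.3. Counts of related neighbours can be split between them, so their separate values are uncertain.

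C14C6.5 (chromosome V, 536628 to 537418, plus strand) was the most abundant ShTK gene of the set per length, at 9.26 ± 2.29 FPKM in mtch-1(RNAi) samples and 30.4 ± 7.15 FPKM in EV samples (SD, n = 4). Its normalized counts were 88.2, 94.9, 149 and 126 in mtch-1(RNAi) samples 1 to 4, against 411, 264, 473 and 359 in EV samples 1 to 4, a ratio of 0.304. EV sample 2 was low and still above every knockdown sample. The pharyngeal gland toxin-related gene phat-3 averaged 27.4 ± 8.68 normalized counts in mtch-1(RNAi) and 64.6 ± 8.83 in EV (SD, n = 4). ZK673.1 averaged 33.6 ± 7.7 in mtch-1(RNAi) and 82.9 ± 20.0 in EV. Over the 36 tested genes that carry this domain, 8 were called lower and 5 higher by edgeR, and of the 31 outside the set 3 were lower and 5 higher. Across all tested genes 13% were called lower and 10% higher. The domain was picked out after the values were seen.

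**Figure D3:**
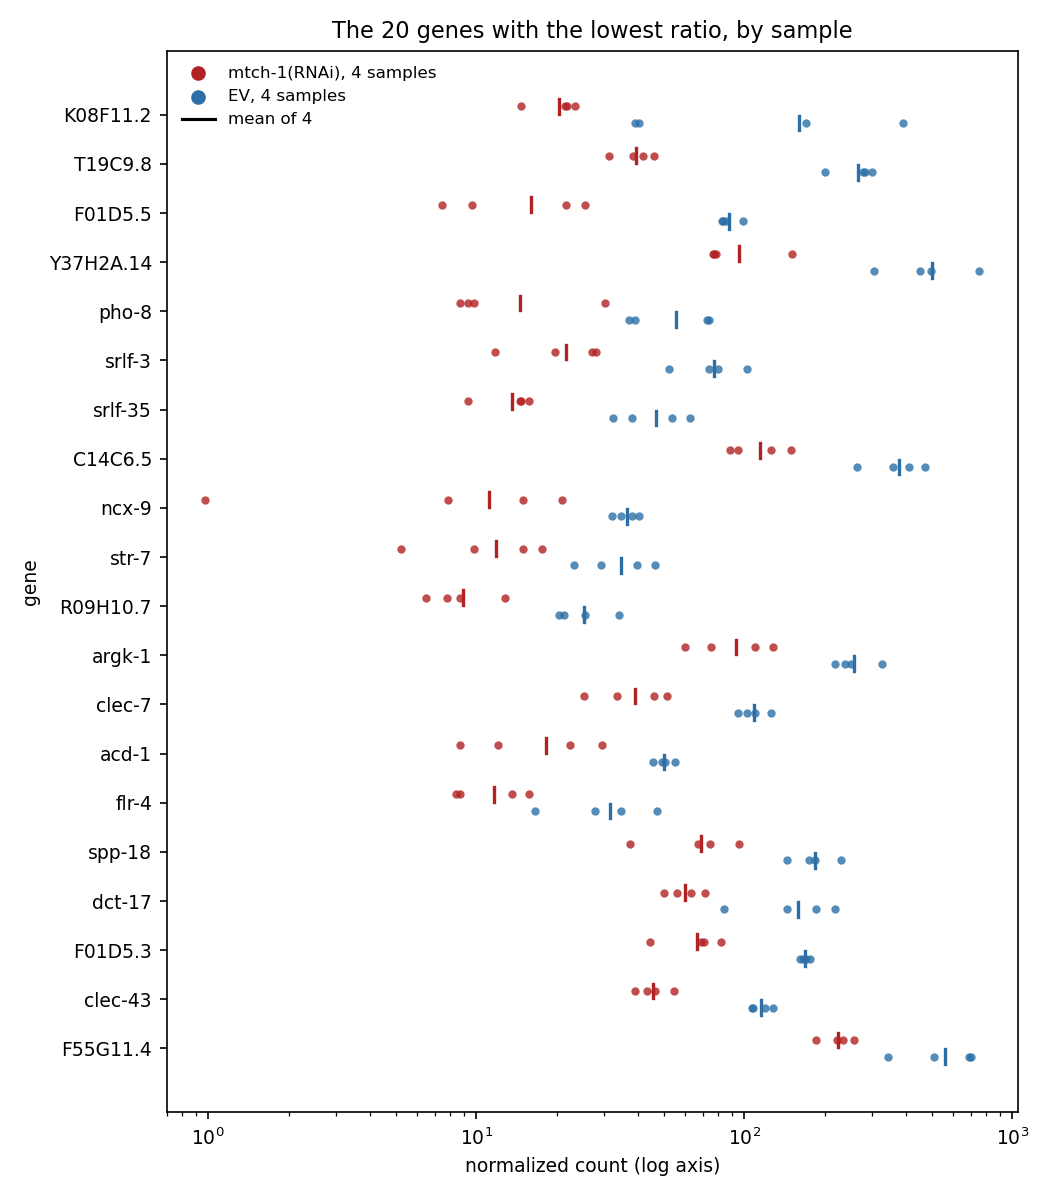
Each row is one of the 20 genes with the lowest ratio, and each dot is the normalized count of 1 sample on a log axis, with mtch-1(RNAi) in red above EV in blue and a coloured tick at the mean of 4. The red dots lie left of the blue ones in every row, EV dots of K08F11.2 spread from 39.2 to 391, and ncx-9 has 1 red dot near 1 normalized count.

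Genes grouped by hand under lectins and defence made up 8 of the 83, with ratios of 0.362 to 0.584. The share of such genes among eligible genes was not counted. They were 4 C-type lectin genes, the saposin-like gene spp-18, the antibacterial factor-related gene abf-5, the galectin gene lec-8 and dct-17, a gene first listed as controlled by the longevity factor DAF-16. clec-7 (chromosome V, 7328392 to 7330002, plus strand) had 25.3, 33.5, 51.7 and 46.2 normalized counts in mtch-1(RNAi) samples 1 to 4, against 109.7, 103, 95.1 and 125 in EV samples 1 to 4. The first knockdown sample was lowest, the groups stood well apart, and the ratio was 0.362. clec-43, in which the deposited table records the lectin domain itself, had 46.3, 39.1, 54.6 and 43.3 in mtch-1(RNAi) samples 1 to 4, against 128, 107, 107 and 119.9 in EV samples 1 to 4. All 8 values were tight within their groups and the ratio was 0.396.

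The more abundant lectin genes had higher ratios. clec-62 averaged 543 ± 60.2 normalized counts in mtch-1(RNAi) and 934 ± 50.1 in EV (ratio 0.581). clec-160 averaged 244 ± 47.3 in mtch-1(RNAi) and 444 ± 53.8 in EV (ratio 0.550; SD, n = 4 each). lec-8, a galectin whose loss alters the response to bacterial toxin in worms, had 1298, 1275, 1346 and 1367 normalized counts in mtch-1(RNAi) samples 1 to 4, against 2551, 1925, 2323 and 2248 in EV samples 1 to 4. Its knockdown samples were nearly equal, while EV sample 2 was the lowest and sample 1 the highest of the EV group. The ratio of lec-8 was 0.584.

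Among all 86 tested C-type lectin genes, 15 were called lower and 9 higher by edgeR, with a median log2 fold change of -0.08, against 0.01 over all 13252 tested genes. Across all 13252, 13% were called lower and 10% higher. The genes of the set in a family were chosen on these values, so the count outside the set, which keeps genes that the selection rule left out, is given beside each total. Of 82 lectin genes outside the set, 11 were lower and 9 higher. With the replicate number as a block, 14 lectin genes were higher. The block raised the shares over all tested genes as well, to 17.1% lower and 15% higher (2264 and 1983 genes), and counts with the block are to be read against those shares. Among the lectins not chosen, clec-65 averaged 1948 ± 108 normalized counts in mtch-1(RNAi) and 2926 ± 74.8 in EV (log2 fold change -0.58, SE 0.05; edgeR adjusted p = 9.77e-06). Likewise clec-150 averaged 1452 ± 67 in mtch-1(RNAi) and 2326 ± 228 in EV (log2 fold change -0.67, SE 0.07; edgeR adjusted p = 4.57e-05).

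spp-18, a saposin-like gene of a family with pore-forming, bacteria-killing members, had 37.5, 95.8, 67.3 and 74.7 normalized counts in mtch-1(RNAi) samples 1 to 4, against 144, 229.5, 175 and 184 in EV samples 1 to 4. Sample 1 was lowest in both groups and the groups were separate, with a ratio of 0.376. In the list of lysozymes and saposin-like proteins, 6 of 27 tested genes were called lower (10 with the replicate block) and 0 higher. Of the 26 outside the set 5 were lower, where the shares over all tested genes were 13% lower and 10% higher. DESeq2 and limma-voom also called 0 higher, 1 gene was higher at an unadjusted p under 0.05, and 1 was called higher without mtch-1(RNAi) sample 2 or with the block. dct-17 had 71.6, 50.2, 63.4 and 56 normalized counts in mtch-1(RNAi) samples 1 to 4, against 185, 84.2, 218 and 145 in EV samples 1 to 4 (ratio 0.381). EV sample 2 was far below the other EV samples and only slightly above the knockdown samples.

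Most lipid genes of the set were abundant. The 6 genes of this role, elo-2, elo-5, ech-7, pmp-5, gba-4 and the lipase-domain gene Y51H4A.5, had a median EV level of 42.4 FPKM and ratios of 0.457 to 0.569. The exception was Y51H4A.5, at 1.16 ± 0.298 FPKM in mtch-1(RNAi) samples and 2.3 ± 0.568 FPKM in EV samples (SD, n = 4). elo-2 (chromosome IV, 17466062 to 17467408, minus strand), which encodes the elongase that lengthens palmitate, had 438, 865, 754 and 889.9 normalized counts in mtch-1(RNAi) samples 1 to 4, against 949, 2017, 1071 and 1611 in EV samples 1 to 4. elo-5 (chromosome IV, 5374616 to 5377117, minus strand), which encodes an elongase of branched-chain fatty acids, had 610.4, 1131, 960.2 and 1271 in mtch-1(RNAi) samples 1 to 4, against 1331, 2174, 1559 and 1921 in EV samples 1 to 4. In both genes samples 2 and 4 were high and samples 1 and 3 low in each group, and the highest knockdown sample came close to the lowest EV sample. The ratios were 0.522 for elo-2 and 0.569 for elo-5.

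ech-7, of the enoyl-CoA hydratase family that acts in fatty acid breakdown, had 291, 646, 456 and 561 normalized counts in mtch-1(RNAi) samples 1 to 4, against 803, 1458, 885 and 1136 in EV samples 1 to 4. Again samples 2 and 4 were the higher ones in each group, and the ratio was 0.457. pmp-5, an ABC transporter of the peroxisomal type, averaged 452 ± 110.5 in mtch-1(RNAi) and 954 ± 186 in EV (ratio 0.474). gba-4, a homolog of the lysosomal enzyme glucocerebrosidase, averaged 479.9 ± 100.4 in mtch-1(RNAi) and 905 ± 89.7 in EV (ratio 0.531; SD, n = 4 each).

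In the list of fatty acid desaturases, elongases and binding proteins, 9 of 25 tested genes were called lower and 2 higher, with a median log2 fold change of -0.16. Of the 23 outside the set 7 were lower and 2 higher, where 13% and 10% of all tested genes were. Without mtch-1(RNAi) sample 1 the number higher was 4, and with the replicate block it was 5. Outside the set, the lipid-binding protein gene lbp-6 averaged 2194 ± 59.3 normalized counts in mtch-1(RNAi) and 3063 ± 126 in EV (log2 fold change -0.47, SE 0.04; edgeR adjusted p = 2.47e-05). lbp-9, of the same family, averaged 11948 ± 972 in mtch-1(RNAi) and 16677 ± 442 in EV (log2 fold change -0.48, SE 0.06; edgeR adjusted p = 0.000135). Among 58 tested genes of acyl-CoA and beta oxidation enzymes, 16 were called lower and 6 higher, with a median log2 fold change of 0.0015. Of the 57 outside the set 15 were lower and 6 higher.

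The alternation of samples seen in the lipid genes recurred elsewhere in the set. In 11 of the 83 genes samples 2 and 4 were both above samples 1 and 3 within mtch-1(RNAi) and within EV, and 5.58% of eligible genes did the same. Those 11 were elo-2, elo-5, ech-7, pmp-5, folt-2, spp-18, cln-3.3, kel-8, T05E12.6, T19C9.8 and Y44A6C.2. The opposite order in both groups was seen in 5 genes (K08F11.2, dct-17, T26H5.9, W04E12.2 and asp-17), against 5.82% of eligible genes. In these genes same-numbered samples of the 2 groups were high or low together, a pattern picked out after the values were seen.

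Transporters, channels and receptors gave 9 of the 83 genes, most of them at low levels, with a median EV level of 1.65 FPKM. ncx-9 (chromosome V, 4991342 to 4995255, minus strand), a mitochondrial sodium/calcium exchanger, had 21, 14.9, 0.975 and 7.87 normalized counts in mtch-1(RNAi) samples 1 to 4, against 32.1, 38.1, 34.7 and 40.6 in EV samples 1 to 4. Its EV samples were close together, but its knockdown samples ran down to about 1 read, and the ratio of 0.307 rests on small counts. acd-1, an acid-sensitive sodium channel subunit of amphid sheath glia, had 8.73, 12.1, 22.4 and 29.5 in mtch-1(RNAi) samples 1 to 4, against 45.5, 55.4, 49.2 and 50.7 in EV samples 1 to 4. Samples 1 and 2 were the lowest of its knockdown group and the ratio was 0.362.

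folt-2 (chromosome V, 2872465 to 2875600, minus strand), a folate transporter family gene, was the abundant exception at 78.5 ± 18.8 FPKM in mtch-1(RNAi) samples and 136 ± 36.3 FPKM in EV samples (SD, n = 4). It had 2107, 3297, 2409.7 and 3485 normalized counts in mtch-1(RNAi) samples 1 to 4, against 3994, 6511, 3685 and 5365 in EV samples 1 to 4. The groups came close, with a gap between mtch-1(RNAi) sample 4 and EV sample 3, and the ratio was 0.578. The other genes of this role were the CLN3 homolog cln-3.3, the ligand-gated channel gene lgc-54, the transporter-domain gene C35A5.3 and the chemoreceptor family genes str-7, str-245 and srh-237.

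str-7 had 5.24, 14.9, 17.5 and 9.83 normalized counts in mtch-1(RNAi) samples 1 to 4, against 46.6, 23.1, 29.1 and 39.7 in EV samples 1 to 4 (ratio 0.343). srh-237 averaged 51 ± 8.51 normalized counts in mtch-1(RNAi) and 113 ± 27 in EV (SD, n = 4; ratio 0.452). Both genes separated the groups at low counts. The set also holds srlf-3 and srlf-35, for which no role is given here. srlf-3 had 27.9, 27, 11.7 and 19.7 normalized counts in mtch-1(RNAi) samples 1 to 4, against 102, 79.6, 73.9 and 52.6 in EV samples 1 to 4 (ratio 0.280), and srlf-35 averaged 13.6 ± 2.91 in mtch-1(RNAi) and 46.7 ± 14 in EV (SD, n = 4; ratio 0.291).

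The list of symbols that start with sr, as those of many chemoreceptors do, counted 50 tested genes, of which 7 were called lower and 0 higher. Chemoreceptor family genes with str symbols, such as str-7 and str-245 of the set, were not in this list. Of the 47 outside the set 4 were lower, below the 13% of all tested genes. DESeq2 and limma-voom also called 0 higher, 3 genes were higher at an unadjusted p under 0.05, and 1 was called higher without mtch-1(RNAi) sample 2, without EV sample 2 or without EV sample 3. With the replicate block 5 were higher. The symbol pattern also catches genes that are no receptors, and the outside genes with the lowest adjusted p were of that kind. srgp-1, a SLIT-ROBO GTPase-activating protein gene, averaged 6487 ± 309 normalized counts in mtch-1(RNAi) and 7913 ± 157 in EV (log2 fold change -0.28, SE 0.04; edgeR adjusted p = 0.000782). srrt-1, a homolog of the RNA-processing factor SERRATE, averaged 6201 ± 229 in mtch-1(RNAi) and 7453 ± 124 in EV (log2 fold change -0.26, SE 0.04; edgeR adjusted p = 0.000846).

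Among 5 other enzymes, argk-1 and pho-8 fell furthest. argk-1 (chromosome V, 16103894 to 16105952, plus strand), an arginine kinase that buffers ATP through phosphoarginine, had 60.3, 75.3, 109 and 128 normalized counts in mtch-1(RNAi) samples 1 to 4, against 237, 218, 249.6 and 326 in EV samples 1 to 4. The groups lay well apart, with a ratio of 0.362. argk-1 and str-7 are 4352 bases apart on chromosome V with 1 protein-coding gene between them. pho-8, an acid phosphatase gene, had 8.73, 9.3, 30.2 and 9.83 normalized counts in mtch-1(RNAi) samples 1 to 4, against 37.3, 39.2, 73.9 and 72.9 in EV samples 1 to 4 (ratio 0.260). Knockdown sample 3 stood well above the other knockdown samples, and without it the log2 ratio was -2.59 in place of -1.94. The remaining enzymes were the glutathione peroxidase gene gpx-3 (ratio 0.531), the aspartyl protease gene asp-17 (0.577) and F20G2.1, with a short-chain dehydrogenase domain (0.416).

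Signalling, muscle and junction genes counted 7, with ratios of 0.369 to 0.594. flr-4 (chromosome X, 15089397 to 15093585, plus strand), a serine/threonine kinase gene known for fluoride resistance and defecation rhythm, had 8.73, 8.37, 13.6 and 15.7 normalized counts in mtch-1(RNAi) samples 1 to 4, against 16.6, 27.7, 34.7 and 47.1 in EV samples 1 to 4 (ratio 0.369). Its EV samples were widely spread, and EV sample 1 was barely above the highest knockdown sample. clc-1, a claudin-like gene of epithelial junctions, averaged 319 ± 63.1 in mtch-1(RNAi) and 624 ± 130.0 in EV. tnt-3, a troponin T gene of muscle, averaged 339.5 ± 48.8 in mtch-1(RNAi) and 588 ± 123 in EV (SD, n = 4 each). The regulators of G protein signalling rgs-9 and rgs-8.1 had ratios of 0.570 and 0.50, at very different levels of 44.8 ± 1.78 and 1.41 ± 0.393 FPKM in EV. cex-1 and F14H12.3, with a thrombospondin domain, complete this role.

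Nuclear and protein turnover genes also counted 7. The histone gene his-61 averaged 118 ± 9.44 normalized counts in mtch-1(RNAi) and 202 ± 21.6 in EV. The histone gene his-40 averaged 16.2 ± 3.67 in mtch-1(RNAi) and 30.2 ± 3.2 in EV (SD, n = 4 each). Histone genes have near-identical copies, so counts of single copies are uncertain. In the histone list 3 of 25 tested genes were called lower (1 without EV sample 4) and 0 higher, also 0 by DESeq2 and limma-voom, with 0 higher at an unadjusted p under 0.05 and 1 higher with the replicate block. Outside the set 1 of 23 was lower, against 13% of all tested genes. That gene was his-31, with 5.94 ± 2.73 normalized counts in mtch-1(RNAi) and 17.7 ± 5.45 in EV (log2 fold change -1.57, SE 0.41; edgeR adjusted p = 0.0156). The list was drawn by symbol. By the histone domain in the deposited table, 2 of 21 tested genes were called lower and 2 higher. Of the 19 such genes outside the set 0 were lower and 2 higher. kel-8, a Kelch-repeat gene that controls glutamate receptor turnover in neurons, averaged 208 ± 40.7 in mtch-1(RNAi) and 392 ± 67.6 in EV. tbx-38, a T-box gene of the early embryo, averaged 21.3 ± 5.79 in mtch-1(RNAi) and 45.3 ± 15.4 in EV. The embryo markers, tbx-38 among them, were lower in sum, as given above, but only 2 of the 6 tested were called lower, and tbx-38 was 1 of these 2. fbxa-42 with an F-box, rcs-1 with a RING domain and M04C3.2 with a helicase-type domain had ratios of 0.510, 0.573 and 0.584.

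The transthyretin-related and DUF19 group held 4 genes, all on chromosome V. ttr-29 had 13.1, 15.8, 12.7 and 14.7 normalized counts in mtch-1(RNAi) samples 1 to 4, against 49.7, 23.1, 22.4 and 43.4 in EV samples 1 to 4 (ratio 0.407), and its EV samples fell into a high and a low pair. ttr-27, 2029 bases away with 1 protein-coding gene between, averaged 17.3 ± 2.63 in mtch-1(RNAi) and 29.2 ± 6.93 in EV. T28A11.19 and T20D4.10, both with a DUF19 domain, had ratios of 0.543 and 0.582. In the transthyretin-related list as a whole, 1 of 46 tested genes was called lower and 4 higher (8 higher with the replicate block, 2 without EV sample 2 and 2 without EV sample 4). The gene called lower was ttr-29 of the set, and the 4 higher ones were among the 44 outside it, where 13% of all tested genes were lower and 10% higher. In that family ttr-44 averaged 1466 ± 146 normalized counts in mtch-1(RNAi) and 949.9 ± 146 in EV (log2 fold change 0.63, SE 0.10; edgeR adjusted p = 0.00101). ttr-46 averaged 2531 ± 129 in mtch-1(RNAi) and 2182 ± 115 in EV (log2 fold change 0.22, SE 0.05; edgeR adjusted p = 0.0087).

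**Figure D4:**
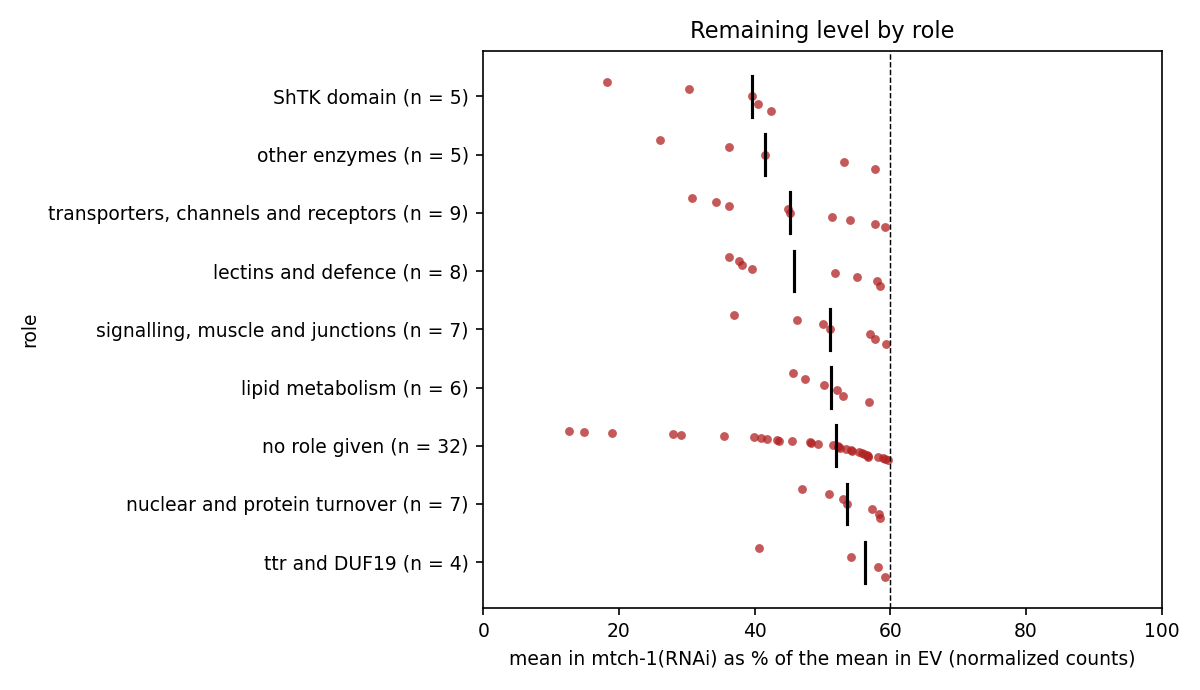
Each dot is 1 of the 83 genes, placed by its mean in mtch-1(RNAi) as a percent of its mean in EV (normalized counts), in rows by role with a black bar at the median of each row and the limit of 60% dashed. Dots are spread vertically for legibility only, and the ShTK row has the lowest median, with dots between 18.3% and 42.4%.

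Several of the most abundant genes of the set have no role given here. C17F4.7 (chromosome II, 3245087 to 3246015, minus strand), for a protein of 186 residues, was by far the most abundant at 959 ± 129.6 FPKM in mtch-1(RNAi) samples and 1729.9 ± 50.8 FPKM in EV samples (SD, n = 4). It had 15607, 13603, 11683 and 15492 normalized counts in mtch-1(RNAi) samples 1 to 4, against 26012, 25433, 26049 and 24338 in EV samples 1 to 4. The EV samples were nearly equal, every knockdown sample was far below them, and the ratio was 0.554. K06A4.7, for a protein of 55 residues, had 2018, 2055, 2312 and 2132 in mtch-1(RNAi) samples 1 to 4, against 4188, 3799.5, 3314 and 3329 in EV samples 1 to 4 (ratio 0.582). Here the knockdown samples were tight and EV sample 1 was the highest.

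F54E2.1 (chromosome V, 2810398 to 2812017, plus strand) combined a high level with a deep fall, at 1276, 1285, 1121 and 1118 normalized counts in mtch-1(RNAi) samples 1 to 4, against 3035, 2422, 2704 and 2832 in EV samples 1 to 4. The groups were tight and wide apart, with a ratio of 0.437. M02H5.8, for a protein of 90 residues, averaged 741 ± 127 in mtch-1(RNAi) and 1774 ± 423 in EV (SD, n = 4; ratio 0.418). F52E1.14 averaged 2002 ± 183 in mtch-1(RNAi) and 3381 ± 129 in EV (SD, n = 4; ratio 0.592), and its span overlaps the small heat shock gene hsp-17.

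T05E12.6 had 536, 766, 676 and 893 normalized counts in mtch-1(RNAi) samples 1 to 4, against 1337, 1663, 1492 and 1815 in EV samples 1 to 4 (ratio 0.455). It lies next to srh-237 on the opposite strand, with no protein-coding gene between, and both neighbours fell to nearly the same part of their EV level. F55G11.4 had 222, 185, 234 and 256 in mtch-1(RNAi) samples 1 to 4, against 704, 343, 691 and 511 in EV samples 1 to 4 (ratio 0.399). R09H10.7 averaged 8.96 ± 2.71 in mtch-1(RNAi) and 25.3 ± 6.31 in EV (SD, n = 4; ratio 0.354), the lowest knockdown mean of the set. In the other 19 genes with no role given, ratios ran from 0.409 in T26H5.9 to 0.597 in C49C3.9. W04E12.2 and valv-1 were the steadiest of these, with within-pair ratios of 0.504 to 0.533 and 0.448 to 0.503.

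Many of the genes lay on chromosome V, a feature that the selection did not use. Chromosome V held 36 of the 83 genes (43.4%), against 18.3% of eligible genes. Chromosome I held 4.82%, against 16.9%, and chromosome III also held 4.82%, against 17%. A mirrored rule for genes that rose (ratio of at least 1.67, no overlap) kept the minimum EV mean of 20 normalized counts. It is thus no exact mirror, since genes that rose from lower EV levels were not counted. The rule found 211 genes, 1.87% of those eligible, and 19.9% of these lay on chromosome V. On that chromosome 12 of the 36 genes started before 5 Mb and 12 after 15 Mb, so they were not in a single cluster. Only 4 pairs of genes in the set lay within 10 kb of each other, those named above. No test was run on these shares, since neighbouring and duplicated genes are not independent.

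The encoded proteins were short in the median, and the genes had few exons. Median length was 288 residues in the 82 genes with a value, against 389 in eligible genes and 415 in the genes that rose by the mirrored rule. Proteins under 200 residues made up 32.9%, against 18.8% and 14.7%. The median number of exons was 4, against 6 and 7. A gene symbol beyond the sequence name existed for 44 of the 83 genes (53.0%), against 61.9% of eligible genes. The spans of 19 genes overlap another protein-coding gene (22.9%, against 30.1% of eligible genes), so part of their reads could belong to it.

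**Figure D5:**
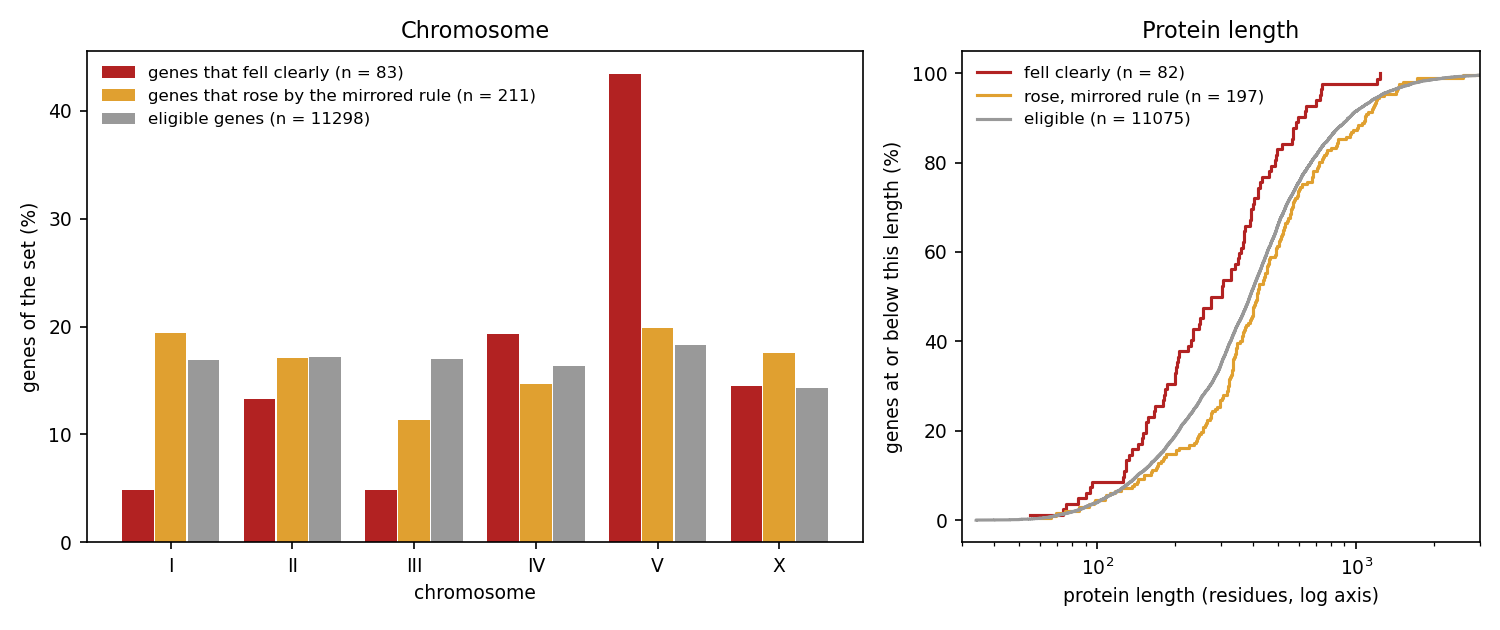
The left panel gives the share of genes on each chromosome in percent, and the right panel the share of genes with a protein of a given length or less (log axis, residues), for the 83 genes in red, the 211 genes that rose by the mirrored rule in orange and the 11298 eligible genes in grey. Chromosome V holds 43.4%, 19.9% and 18.3% of these groups of genes, and the red length curve lies left of the others, with medians of 288, 415 and 389 residues.

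Of 26 gene lists drawn by symbol, 14 held no gene of the set, and 20 of the 83 genes were in a list. Lists with none were those of lipases, cytochrome P450, UDP-glycosyltransferases, glutathione S-transferases, short-chain dehydrogenases by symbol, solute transporters, cuticle collagens, nuclear hormone receptors, sperm genes, neuropeptides and insulins, Argonautes and RNA interference, vitellogenins, hedgehog-related genes, and irg and dod defence genes. Of the 10 genes that the selection rule left out, 2 were in the irg and dod list and 1 in the Argonaute list. Since the lists go by symbol, an empty list does not mean that the set lacks such proteins. The set holds the lipase-domain gene Y51H4A.5 and transporter genes such as folt-2. A list with none could still hold genes called lower. In the Argonaute list 16 of 44 tested genes were lower and 6 higher. In the irg and dod list 4 of 15 were lower and 4 higher, and among cuticle collagens 1 of 105 was lower and 15 higher. The 5 lists that held 1 gene each and are not described above were those of argk-1, asp-17, fbxa-42, abf-5 and dct-17. Of their tested genes, 17 of 49 in amino acid metabolism were called lower, 12 of 61 proteases (20 with the replicate block), 11 of 253 F-box, BATH and MATH genes (19 with the block), 1 of 23 small antimicrobial genes (2 without EV sample 4) and 6 of 39 DAF-16 linked stress genes. In the same order 2 (4 with the block), 4 (11 with the block), 25, 2 (6 with the block) and 13 were called higher. Of the DAF-16 linked genes 7 were higher without mtch-1(RNAi) sample 4, 8 without EV sample 1 and 6 without EV sample 4. In amino acid metabolism 1 was higher without mtch-1(RNAi) sample 1 or 2 or EV sample 3 or 4, and 4 were without EV sample 2. In the antimicrobial list 1 was higher without mtch-1(RNAi) sample 1 or EV sample 3 or 4, and 5 were without mtch-1(RNAi) sample 4. Outside the set, genes called lower were 16 of 48 in amino acid metabolism, 12 of 60 proteases, 10 of 252 F-box, BATH and MATH genes and 5 of 38 DAF-16 linked genes, and the antimicrobial gene called lower was abf-5 of the set. Over all tested genes 13% were lower and 10% higher.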

How the data were processed

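RNA sequencing of 8 samples was analysed from 1 deposited table. Per the submitters' processing notes, the WBcel235 build was used with DESeq2, featureCounts 1.5.0-p3 and HISAT2 2.0.5. No source used here gives the settings, the RNA selection or the strandedness. Whole-number read counts were deposited by the authors, per the file headers, beside a normalized signal, which is each count over its sample's size factor. The authors also deposited FPKM values, a log2 fold change, p-values and gene lengths in bases. The ratios used the normalized counts and levels between genes used FPKM. The authors' own fold changes and p-values were not printed. No per-sample column lacked a sample (0 columns), and 0 rows had no gene name.

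The 83 genes and the gene lists were chosen with earlier results of these data known. Roles were assigned by hand after values were seen, from gene names, the deposited domains and general knowledge. Genes named are the 20 with the lowest ratio, the 10 with the highest EV mean, up to 4 per gene list with 2 or more genes of the set, the 3 on either side of the ratio limit, and neighbours within 10 kb. Up to 2 other genes per such list are those called with the lowest adjusted p, leaving out the 10 genes that the selection rule leaves out. Further genes were named to describe every role, after their values were seen. Names, spans, exons and protein lengths came from the Ensembl annotation of WBcel235, which held 20596 of the 20871 gene identifiers, and coordinates are 1-based.

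The test was edgeR's quasi-likelihood F test on counts (edgeR 4.0.16, R 4.3.3), with TMM scaling and the default filter. Its p-values were adjusted by Benjamini-Hochberg over 13252 genes, called at an adjusted p under 0.05. Alternatives were DESeq2 1.42.0, limma-voom (limma 3.58.1), DESeq2 size factors, other count filters, a replicate block, and leaving out each sample. On counts simulated for this comparison over 13067 genes, edgeR recovered 55.2%, 82.7% and 96.4% of genes changed by 0.5, 1 and 2 on the log2 scale, and called 11 of 12870 unchanged genes. Unchanged genes were 6.75% of its calls. The changed genes numbered 67, 75 and 55, and the simulated samples were not paired. In the data 13% of tested genes were called lower and 10% higher, so these rates may not carry over.

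Replicate numbers came from the sample titles. Deviations of same-numbered samples from their group means correlated by 0.331, 0.195, 0.234 and 0.177 for numbers 1 to 4 over the tested genes, all above 0.1, so the numbers were taken to pair the samples. The main edgeR fit did not use this pairing, so its calls, SEs and adjusted p-values are those of unpaired groups. With the replicate block, which used it, 2264 genes were called lower and 1983 higher, against 1728 and 1325 in the main fit. No samples within a group agreed within sampling noise, with a chi-square per degree of freedom of 6.28 to 14.0. Promoter sequences and motifs were not analysed here.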

Additional observations from a re-analysis of the deposited data

Results flagged for a closer look

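In 5 genes 1 sample lay far from the other 3 of its group, among the 84 groups of 4 samples that were examined, and chance gives about 1 in 20. In Y37H2A.14, mtch-1(RNAi) sample 1 was the highest at 150.2 normalized counts, where the other knockdown samples had 76.7 to 78.1. In pho-8, mtch-1(RNAi) sample 3 was the highest at 30.2, where the others had 8.73 to 9.83. In srlf-35, mtch-1(RNAi) sample 2 was the lowest at 9.30. The C-type lectin gene clec-62 was highest in mtch-1(RNAi) sample 1, at 632, and the histone gene his-61 was highest in EV sample 2, at 234. None of these samples crossed into the other group, since the selection asks for groups that do not overlap. The causes were not tested.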

How the results depend on the processing

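Which genes belong to the set depends on its limits. The rule gave 38 genes at a ratio limit of 0.5, 47 with an EV mean of at least 100 and 138 with overlap allowed, and 95 to 105 when 1 sample was left out. With TMM scaling the 83 genes were the same. A paired form of the rule took the mean of the within-pair log2 ratios, with the same limit of 0.6. In place of groups without overlap, it asked only for a lower knockdown value in each same-numbered pair. This different rule was met by 120 genes, 82 of them in the set, so that number cannot be set against 83 as an effect of pairing alone. Without replicate 1 in either group 111 genes met the original rule, 70 of them in the set, a setting added after seeing the data. The median log2 ratio of the set stayed between -1.05 and -0.93 when 1 sample was left out. The genes of the set called lower numbered 52 under the stricter filter, where only 52 were tested, and 67 to 75 with 1 sample left out.

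Counts in gene lists moved more. With the replicate block the number higher was 14 in C-type lectins, 5 in chemoreceptor-type symbols, 5 in fatty acid genes, 1 in histones, 1 in lysozymes and saposin-like genes 8 in transthyretin-related genes, 4 in amino acid metabolism, 11 in proteases and 6 in antimicrobial genes, and the number lower was 10 in lysozymes and saposin-like genes, 19 in F-box genes and 20 in proteases. In the lists that held a gene of the set, the block changed no other count, lower or higher, by over 1.5 times. The 14 lists with no gene of the set were not compared between settings. With the stricter filter, 5 C-type lectins, 16 F-box genes and 1 antimicrobial gene were higher, and 4 chemoreceptor-type, 1 histone, 0 antimicrobial and 0 transthyretin-related genes were lower. With no filter 1 chemoreceptor-type gene and 4 antimicrobial genes were higher, and DESeq2 called 4 antimicrobial genes higher. Leaving out 1 sample gave 0 to 1 higher in chemoreceptor-type and in lysozyme genes, 2 to 4 in fatty acid genes and 2 to 5 in transthyretin-related genes. It gave 1 to 4 higher in amino acid metabolism and 1 to 5 in antimicrobial genes. In DAF-16 linked genes it gave 6 to 11 higher, against 13 with all samples. The number lower was 1 to 3 in histones and 1 to 2 in antimicrobial genes. The causes were not tested. The planned change of promoter window was not run, because no promoter sequence was used here.

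Depth limits the low genes: 21 of the 83 had EV means under 50 normalized counts, where a few reads move a ratio.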
